A study of Homo sapiens with 12 samples.

Results

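The ERK pathway output and feedback genes are 10 genes whose transcription follows the activity of the kinase ERK, and most of which encode brakes on the same pathway. They were chosen by name, as the rows of the count table whose gene symbol is DUSP4, DUSP5, DUSP6, SPRY2, SPRY4, SPRED1, SPRED2, ETV4, ETV5 or PHLDA1, and make up 10 of the 58307 rows that name a gene. Each symbol had 1 row, and all 10 passed the filter on low counts in every comparison. The table holds 12 polyA RNA-seq libraries from A375 and SK-MEL-28, human malignant melanoma cell lines that both carry an activating BRAF mutation. Each line received Etoposide alone, a topoisomerase II poison, or Etoposide + Rapamycin, which adds an inhibitor of the kinase complex mTORC1 that the study used to induce autophagy, with 3 replicates in each of the 4 groups. All 12 libraries had etoposide, so no comparison here is against untreated cells. Dose and time of treatment are not given in the labels. The study describes its replicates as biologically independent, but the labels do not say whether they came from separate cultures, and p-values measure the spread between these libraries.

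ERK is the last kinase of a relay in which RAS activates RAF, RAF activates MEK and MEK activates ERK. Active ERK phosphorylates transcription factors and relieves repression by CIC, and the genes that rise in response include several of its own inhibitors. DUSP4, DUSP5 and DUSP6 are dual-specificity phosphatases that remove the activating phosphates from MAP kinases, DUSP4 and DUSP5 in the nucleus and DUSP6 in the cytoplasm. Sprouty (SPRY) and SPRED proteins act further upstream, between receptor tyrosine kinases and RAF, and SPRED proteins bring the RAS inactivator neurofibromin to the membrane. ETV4 and ETV5 are ETS family transcription factors, and PHLDA1 is a pleckstrin homology-like domain protein. In melanomas with an activating BRAF mutation this set of transcripts is commonly used as a readout of MEK and ERK output.

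Promoter sequences were available for 6 of the 10 genes in the RefSeq table used (GRCh38.p14), as 9 windows running from 250 bases before to 50 bases after an annotated start. DUSP4, DUSP5, ETV4 and ETV5 had no entry. Each window was searched on both strands for the ETS core CCGGAA, the AP-1 site TGANTCA, the cyclic AMP response element TGACGTCA, the CArG box bound by SRF and the CIC octamers TGAATGAA, TGAATGGA, TCAATGAA and TCAATGGA. The windows of DUSP6, SPRY2 and PHLDA1 are printed because they held a match in the sole or first listed window of the gene, and because these genes show a flat, a rising and a falling response below. Capitals mark the matches, and all 3 genes lie on the reverse strand, at chr12:89352452-89352751, chr13:80341077-80341376 and chr12:76031727-76032026.
DUSP6: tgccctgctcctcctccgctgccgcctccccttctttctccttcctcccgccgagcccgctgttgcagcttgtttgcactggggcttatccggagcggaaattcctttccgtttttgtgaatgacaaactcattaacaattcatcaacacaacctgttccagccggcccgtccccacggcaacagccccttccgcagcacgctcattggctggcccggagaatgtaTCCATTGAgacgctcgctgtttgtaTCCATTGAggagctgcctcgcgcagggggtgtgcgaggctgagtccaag
SPRY2: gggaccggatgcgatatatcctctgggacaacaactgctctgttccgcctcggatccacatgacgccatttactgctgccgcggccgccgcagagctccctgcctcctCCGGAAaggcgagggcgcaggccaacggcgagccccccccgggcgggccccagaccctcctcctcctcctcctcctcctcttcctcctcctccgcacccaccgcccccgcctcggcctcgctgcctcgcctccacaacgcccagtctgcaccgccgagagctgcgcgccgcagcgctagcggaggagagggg
PHLDA1: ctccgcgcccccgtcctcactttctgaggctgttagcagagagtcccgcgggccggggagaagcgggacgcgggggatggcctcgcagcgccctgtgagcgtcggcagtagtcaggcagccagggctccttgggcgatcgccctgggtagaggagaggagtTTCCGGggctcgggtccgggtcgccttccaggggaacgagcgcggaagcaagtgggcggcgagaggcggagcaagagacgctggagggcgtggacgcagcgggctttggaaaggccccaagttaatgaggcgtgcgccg
The DUSP6 window held 2 CIC octamers, both as the reverse complement of TCAATGGA, at bases 227 to 234 and 252 to 259 of the window, on either side of the start. A CIC octamer was present in 3.75% of the 34943 promoter windows in the table. SPRY2 held 1 ETS core at bases 109 to 114 and PHLDA1 held 1 on the opposite strand at bases 162 to 167, a motif found in 17.2% of windows. The second SPRED2 window held 2 AP-1 sites (7.72% of windows), and no window of SPRY4 or SPRED1 held any of the 5 motifs. The response element was found in 1.84% of all windows and the CArG box in 1.3%. These matches describe letters and not bound sites.

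Library totals ran from 28190672 to 32499659 counts, so depth was nearly even. The 10 genes were well covered, from 1052 counts for DUSP5 in an SK-MEL-28 etoposide library to 54946 counts for PHLDA1 in an A375 etoposide library. Of the melanocyte markers, SOX10 (166 to 579 CPM), S100B (56.8 to 106 CPM) and MITF (12.1 to 29.7 CPM) were present in all 12 libraries, whereas the pigment genes PMEL (1.54 to 2.99 CPM), MLANA (0.358 to 1.37 CPM) and TYR (0 to 0.197 CPM) were near 0 in the libraries of both lines, those labelled SK-MEL-28 included. Comparisons between the lines rest on the labels, and the identity of the lines was not tested otherwise. CPM are library-size scaled counts after TMM normalisation. Summed over 8 markers of keratinocytes, epithelium, leukocytes, endothelium and fibroblasts, the level was 26.6 to 31.1 CPM in A375 with etoposide and 19.5 to 22.4 CPM with rapamycin added, and 34.2 to 40 against 22.2 to 26.2 CPM in SK-MEL-28, LUM alone reaching 28.9 CPM. CD3E, KRT5, EPCAM and PTPRC were each below 0.7 CPM in every library. The part of these markers in the results below was not tested. In bulk RNA, fewer cells of a kind and less RNA per cell cannot be told apart.

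Levels of the 10 genes were compared per kilobase of exon, using the union of GENCODE 44 exons. Which transcripts of each gene were expressed was not examined, and the counts were made with another annotation. Ranks that lie close together may therefore depend on the exon length used. PHLDA1 was the most abundant in every group, at 302 ± 6.17 CPM per kb in A375 under etoposide and 211 ± 10 CPM per kb in SK-MEL-28 (SD, n = 3). SPRY2 was second in all 4 groups, at 93.9 ± 4.3 and 67.3 ± 5.29 CPM per kb in these groups. In A375 under etoposide DUSP6 followed at 57.1, then DUSP4 at 51.5 and ETV4 at 50.7, whose libraries overlapped, then SPRY4 at 24.8, DUSP5 at 23, SPRED1 at 20.7, and SPRED2 at 13.7 and ETV5 at 13.3 CPM per kb, which overlapped. The order differed in SK-MEL-28 under etoposide. There ETV4 (44.1), DUSP4 (43.2) and DUSP6 (40.6 CPM per kb) overlapped with their neighbour in the order, SPRY4 stood at 31.8, ETV5 (21.1) overlapped with SPRED1 (20.7), and DUSP5 (14.2) and SPRED2 (11.7 CPM per kb) were lowest. By mean, ETV5 was thus the lowest of the 10 in A375 and the seventh in SK-MEL-28.

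**Figure D1:**
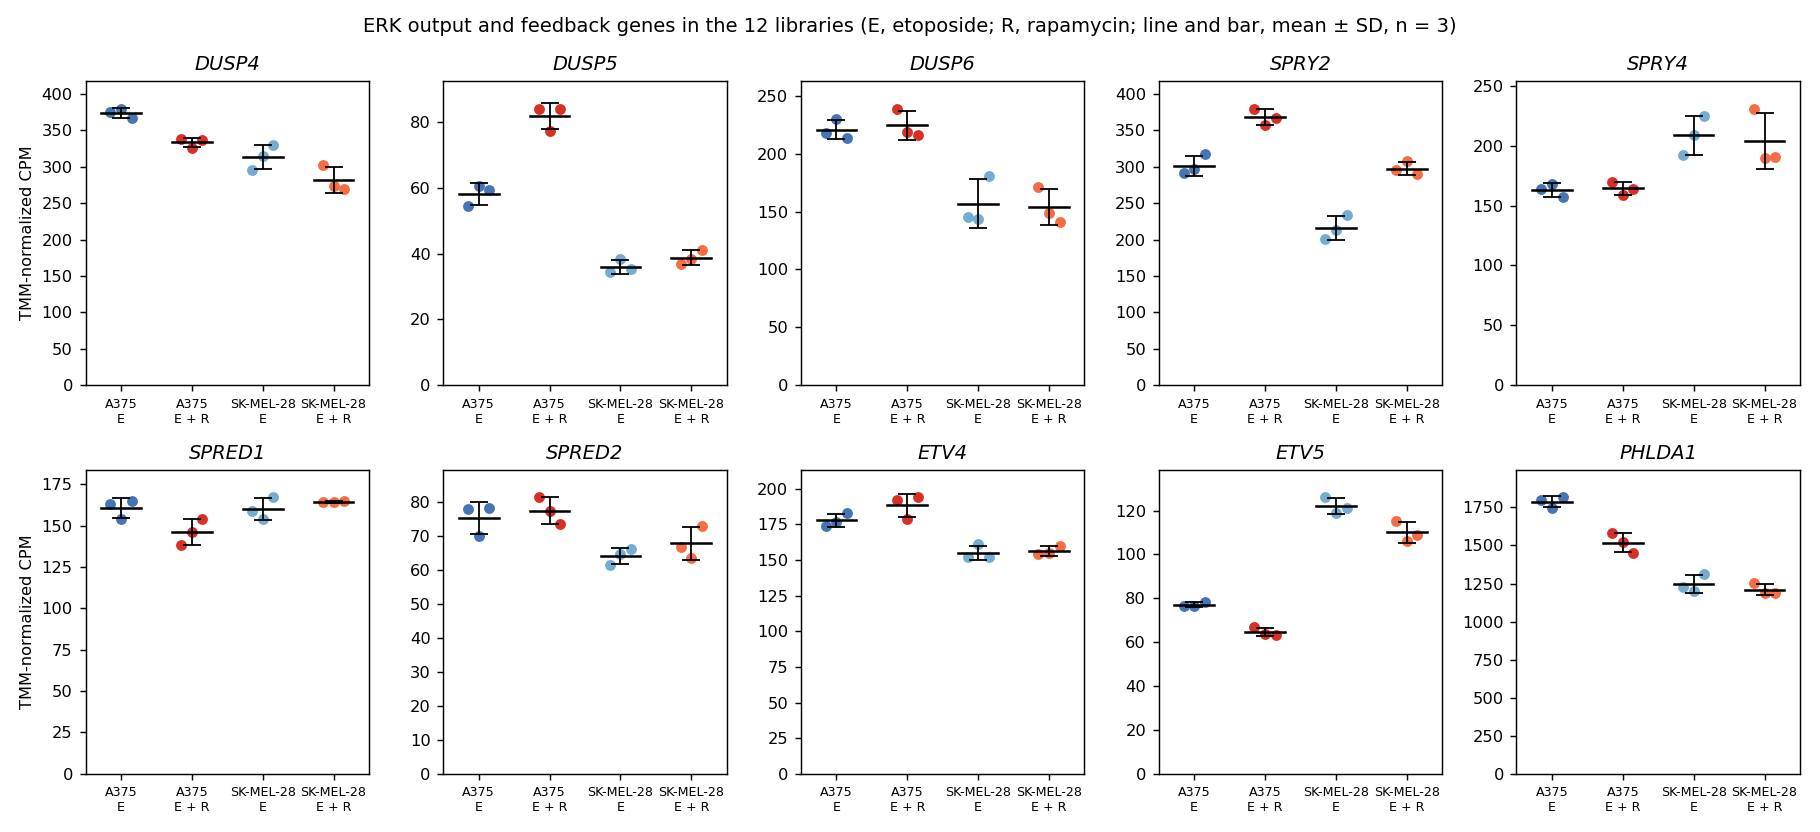
Level of each of the 10 genes (vertical axis, TMM-normalized CPM from 0) in the 3 libraries of each of the 4 groups, with the mean and SD as a line and bar. DUSP5 stands at 77.3 to 84.1 CPM in A375 with rapamycin and at 34.4 to 60.7 CPM in the other groups, and SPRY2 is higher with rapamycin in both lines.

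Adding rapamycin to etoposide moved these genes in different directions and by little. SPRY2 rose in both cell lines, DUSP5 rose in A375, and DUSP4, ETV5 and PHLDA1 fell in A375, whereas DUSP6, SPRY4, SPRED1, SPRED2 and ETV4 passed the test in neither line. A gene was counted as changed at a p under 0.05 in edgeR's quasi-likelihood test, adjusted by Benjamini-Hochberg over the genes tested. In A375, 2 of the 10 genes rose, where 14.3% of all 18844 genes tested did, and 3 fell, where 13.8% of all genes did. In SK-MEL-28, 1 rose, where 8.83% of the 18897 genes tested did, and 0 fell, where 10.1% did. For this count of 0, 2 genes fell at an unadjusted p under 0.05 in edgeR, and DESeq2 called 2 lower after adjustment (DUSP4 and ETV5). Well expressed genes pass more often, so the same shares were taken over the 4285 genes at or above the mean level of the lowest of the 10 (53.7 CPM). The share that changed was 51.4% for A375 and 34.7% for SK-MEL-28, against 5 and 1 of the 10. The share in A375 was therefore close to that of other genes of like abundance, and the 10 genes showed no shared direction, their median log2 fold change being 0.024 (A375) and -0.009 (SK-MEL-28), beside -0.0051 and 0.0053 over all genes. None of the 10 changed over 1.5-fold in either line by edgeR, at an adjusted or unadjusted p, or by DESeq2, where 5.89% (A375) and 4.99% (SK-MEL-28) of all genes did. Libraries with and without rapamycin did not overlap for 6 of the 10 genes in A375 (42.6% of all genes) and for 2 in SK-MEL-28 (35.9% of all genes). The share without overlap among genes of like abundance was not computed.

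Markers of melanoma cell state also moved with rapamycin. Of the 8 melanocyte lineage markers 7 could be tested, of which 3 fell in A375 (MITF, S100B and DCT) and 1 in SK-MEL-28 (MITF). DCT was close to 0 in A375, at 0.714 CPM under etoposide and 0.216 CPM with rapamycin. SOX10, the most abundant of these markers, passed in neither line (log2 0.14 ± 0.16 SE in A375 and -0.23 ± 0.23 SE in SK-MEL-28). MITF, the master regulator of the melanocyte lineage, fell from 19.3 to 13.5 CPM in A375 and from 28.3 to 20.1 CPM in SK-MEL-28 (log2 -0.51 ± 0.10 SE and -0.50 ± 0.097 SE). S100B fell from 87.5 to 58.5 CPM in A375 (-0.58 ± 0.063 SE) and was at 98.2 and 87.8 CPM in SK-MEL-28 (-0.16 ± 0.076 SE, adjusted p = 0.16). Of the 3 markers of dedifferentiated melanoma, the receptor tyrosine kinase AXL rose in both lines (0.61 ± 0.044 SE and 0.52 ± 0.046 SE) and the nerve growth factor receptor NGFR fell in both (-0.57 ± 0.052 SE and -0.27 ± 0.067 SE). EGFR rose in A375 (0.22 ± 0.067 SE, adjusted p = 0.029) and had an estimate of -0.052 ± 0.095 SE in SK-MEL-28. The EGFR call ended without any of 5 of the 6 A375 libraries (adjusted p up to 0.119), and the NGFR call in SK-MEL-28 without the second etoposide library (0.0534). Summed, these 3 ran from 385 to 400 CPM in A375 under etoposide and from 423 to 446 CPM with rapamycin, and from 471 to 491 and 493 to 531 CPM in SK-MEL-28. Of the 8 markers of other cell types, 4 could be tested in A375 and 5 in SK-MEL-28, and 2 fell in each line. The fibroblast marker LUM fell in both lines (-0.73 ± 0.16 SE and -0.66 ± 0.11 SE). DCN, also of fibroblasts, fell in A375 (-0.63 ± 0.18 SE), and the endothelial PECAM1 fell in SK-MEL-28 (-0.70 ± 0.23 SE). The DCN call ended without either of 2 of the 6 libraries (adjusted p up to 0.0871). The PECAM1 call ended without any 1 of the 6 (up to 0.149). The part of these markers in the responses given below was not tested.

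Among the phosphatases, DUSP5 (chromosome 10, 110497907 to 110511533, forward strand, GRCh38), which acts on ERK in the nucleus, had the largest response of the 10 genes in A375. Its level was 54.4, 60.7 and 59.5 CPM under etoposide and 84.1, 77.3 and 84.1 CPM with rapamycin added. All 3 rapamycin libraries lay above all 3 etoposide libraries, and the increase was 1.41-fold (log2 0.50 ± 0.057 SE, adjusted p = 6.12e-05). In SK-MEL-28 DUSP5 was lower throughout, at 34.4, 38.4 and 35.3 CPM under etoposide and 36.7, 38.4 and 41.1 CPM with rapamycin, and the groups overlapped (log2 0.10 ± 0.07 SE, adjusted p = 0.364). DUSP4 (chromosome 8, 29333064 to 29350684, reverse strand) moved the other way. In A375 it was at 376, 380 and 367 CPM under etoposide and 338, 326 and 337 CPM with rapamycin, a decrease to 0.894-fold with no overlap (log2 -0.16 ± 0.041 SE, adjusted p = 0.0115). Without the second A375 rapamycin library the adjusted p rose to 0.0635. In SK-MEL-28 the DUSP4 estimate was again -0.16 (± 0.059 SE, adjusted p = 0.0819), from 296, 315 and 330 CPM under etoposide and 303, 273 and 270 CPM with rapamycin. The first rapamycin library lay within the etoposide range, and without it the adjusted p was 0.031, with log2 -0.21. It was 0.0489 without the first SK-MEL-28 etoposide library. With all libraries kept it was 0.0321 by DESeq2, 0.0348 with library totals as the scaling and 0.0386 with 1 fit of the 12 libraries.

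DUSP6 (chromosome 12, 89347235 to 89352501, reverse strand), the cytoplasmic ERK phosphatase widely used as a readout of the pathway, did not pass the test. It stood at 218, 230 and 214 CPM in A375 under etoposide and at 239, 219 and 216 CPM with rapamycin (log2 0.031 ± 0.052 SE, adjusted p = 0.705). In SK-MEL-28 it was at 145, 144 and 181 CPM under etoposide and 171, 149 and 141 CPM with rapamycin (log2 -0.028 ± 0.091 SE, adjusted p = 0.87). Groups overlapped in both lines, and 1 library in each SK-MEL-28 group stood above the other two. The sign of the estimate turned when either the third etoposide library (log2 0.092) or the third rapamycin library (0.034) was left out in SK-MEL-28, and in A375 without the first rapamycin library (-0.014). DUSP6 exons overlap 1105 bases of a gene on the opposite strand (ENSG00000274021), and whether reads were counted by strand is not given in the sources used here.

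SPRY2 (chromosome 13, 80335976 to 80341126, reverse strand), which restrains receptor tyrosine kinase signalling to RAS and RAF, rose in both cell lines. A375 had 291, 297 and 317 CPM under etoposide and 380, 358 and 367 CPM with rapamycin, a 1.23-fold increase (log2 0.29 ± 0.047 SE, adjusted p = 0.000578). SK-MEL-28 had 201, 213 and 234 CPM under etoposide and 295, 308 and 290 CPM with rapamycin, a 1.37-fold increase (log2 0.46 ± 0.06 SE, adjusted p = 0.00016). In each line every rapamycin library was above every etoposide library. Over the alternative settings and omitted libraries, the SPRY2 estimate ranged from 0.25 to 0.33 (A375) and from 0.41 to 0.52 (SK-MEL-28), and the adjusted p was at most 0.00533. The increase with rapamycin brought SK-MEL-28 to 298 ± 9.08 CPM, beside 302 ± 13.8 CPM in A375 under etoposide alone (SD, n = 3).

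SPRY4 (chromosome 5, 142310427 to 142326455, reverse strand), a second Sprouty protein, showed no such increase. Its level was 164, 168 and 157 CPM in A375 under etoposide and 170, 159 and 164 CPM with rapamycin (log2 0.017 ± 0.047 SE, adjusted p = 0.825). SK-MEL-28 had 192, 209 and 225 CPM under etoposide and 231, 190 and 191 CPM with rapamycin (log2 -0.036 ± 0.079 SE, adjusted p = 0.805). Groups overlapped in both lines. SPRED1 (chromosome 15, 38252836 to 38357249, forward strand), the partner of neurofibromin, was at 163, 154 and 165 CPM in A375 under etoposide and at 138, 146 and 154 CPM with rapamycin. The groups just did not overlap, and the difference missed the threshold (log2 -0.14 ± 0.052 SE, adjusted p = 0.069), which it passed without the third rapamycin library (adjusted p = 0.0484), with library totals as the scaling (0.0203) and with 1 fit of the 12 libraries (0.041). In SK-MEL-28 SPRED1 was at 159, 154 and 167 CPM under etoposide and 164, 164 and 165 CPM with rapamycin (log2 0.035 ± 0.05 SE, adjusted p = 0.69). SPRED2 (chromosome 2, 65310851 to 65432637, reverse strand) ran from 70 to 81.5 CPM over the 6 A375 libraries and from 61.7 to 73.2 CPM over the 6 SK-MEL-28 libraries, with overlapping groups and log2 estimates of 0.044 ± 0.059 SE (adjusted p = 0.631) and 0.078 ± 0.06 SE (adjusted p = 0.417).

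The ETS factors ETV4 and ETV5, close relatives whose genes are repressed by CIC when ERK is inactive, differed in A375. ETV5 (chromosome 3, 186046314 to 186110318, reverse strand) fell from 76.3, 76.5 and 78.4 CPM under etoposide to 66.7, 63.6 and 63.4 CPM with rapamycin, with no overlap (0.841-fold, log2 -0.25 ± 0.048 SE, adjusted p = 0.00192). In SK-MEL-28 it was at 126, 119 and 121 CPM under etoposide and 115, 106 and 109 CPM with rapamycin. The groups did not overlap there either, but the difference missed the threshold (log2 -0.15 ± 0.053 SE, adjusted p = 0.0637). It passed without the first rapamycin library, at an adjusted p of 0.0383. With all libraries kept the adjusted p was 0.0354 by DESeq2, 0.0262 with library totals as the scaling and 0.0355 with 1 fit of the 12 libraries. ETV4 (chromosome 17, 43527844 to 43579620, reverse strand) was at 174, 177 and 183 CPM in A375 under etoposide and 192, 179 and 194 CPM with rapamycin, groups that overlapped (log2 0.085 ± 0.047 SE, adjusted p = 0.204). In SK-MEL-28 the ETV4 libraries spanned 152 to 161 CPM in all (log2 0.01 ± 0.05 SE, adjusted p = 0.917). ETV5 shares 164 exonic bases with DGKG on the same strand, and the table places both names in 1 assembled locus, so reads could be split between them. DGKG was at 14.6 ± 0.761 CPM in A375 and 26.1 ± 1.45 CPM in SK-MEL-28 under etoposide, and at 14.4 ± 1.12 and 26 ± 2.07 CPM with rapamycin (SD, n = 3). ETV4 shares 68 bases with DHX8 on the opposite strand.

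PHLDA1 (chromosome 12, 76025447 to 76031776, reverse strand) fell in A375, from 1801, 1746 and 1816 CPM under etoposide to 1580, 1523 and 1452 CPM with rapamycin. Its groups did not overlap (0.853-fold, log2 -0.23 ± 0.042 SE, adjusted p = 0.00146), and the adjusted p stayed at or below 0.00988 under every alternative. In SK-MEL-28 the levels were 1226, 1201 and 1314 CPM under etoposide and 1251, 1190 and 1185 CPM with rapamycin, which overlapped (log2 -0.048 ± 0.044 SE, adjusted p = 0.508). PHLDA1 shares 553 exonic bases with PHLDA1-AS1 on the opposite strand.

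**Figure D2:**
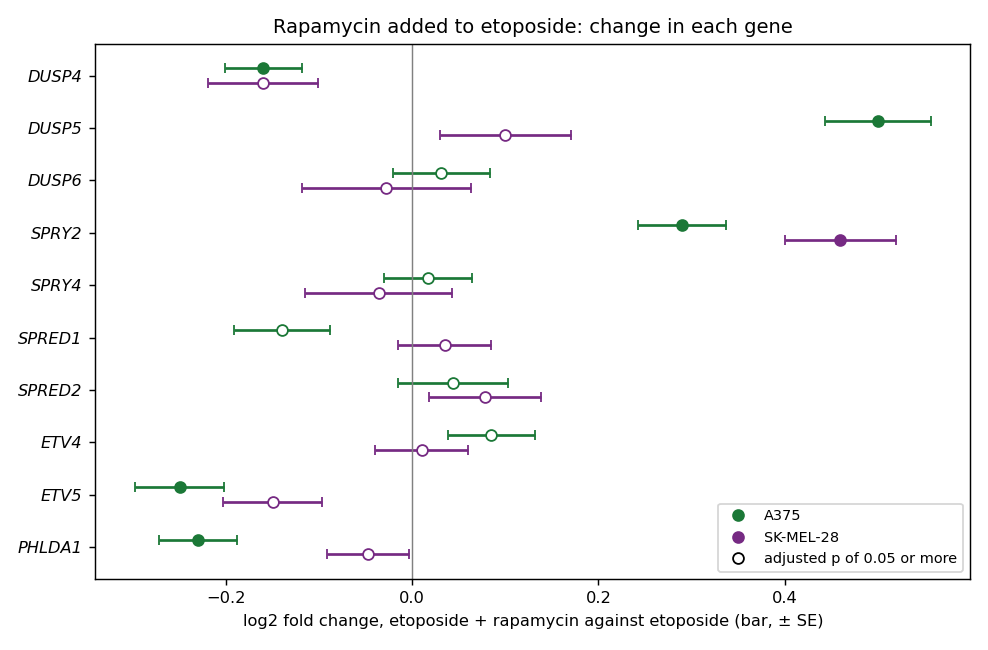
Log2 fold change (horizontal axis) of etoposide + rapamycin against etoposide for each gene in A375 (green) and SK-MEL-28 (purple), with bars of 1 SE and open points where the adjusted p was 0.05 or more. SPRY2 is filled on the right in both lines (0.29 and 0.46), and DUSP5 at 0.50 in A375 stands apart from its SK-MEL-28 value of 0.10.

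Whether the response to rapamycin differed between the lines was tested directly, over all 12 libraries. The difference passed for 1 of the 10 genes, DUSP5, where 5.62% of all 20101 genes and 13.6% of those of like abundance passed. The DUSP5 response was smaller in SK-MEL-28 by 0.39 on the log2 scale (log2 -0.39 ± 0.09 SE, adjusted p = 0.0183). That call was lost when the first or the third A375 rapamycin library or the second SK-MEL-28 etoposide library was left out, with adjusted p of 0.0516, 0.0582 and 0.0605 and estimates of -0.37, -0.37 and -0.35. For PHLDA1, whose fall passed only in A375 of the 2 lines, the difference was 0.19 ± 0.06 SE (adjusted p = 0.0759), and it passed without the third SK-MEL-28 etoposide library (0.23, adjusted p = 0.0485). SPRY2 (0.17 ± 0.076 SE, adjusted p = 0.209) and SPRED1 (0.18 ± 0.069 SE, adjusted p = 0.147) did not pass, nor did DUSP4, DUSP6, SPRY4, SPRED2, ETV4 or ETV5, whose estimates ran from -0.066 to 0.11.

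The spread between replicates was uneven. In SK-MEL-28 the SD of log2 CPM for DUSP6 was 0.19 under etoposide and 0.15 with rapamycin, beside medians of 0.085 and 0.084 over genes with a mean of at least 100 counts, and 88.4% and 77% of those genes had a smaller SD. SPRY4 had an SD of 0.11 and 0.16 in the same groups. In A375 the SD of DUSP6 was 0.056 and 0.082. Under etoposide in SK-MEL-28 the third library was the highest of the group for 7 of the 10 genes, and it was the highest for 30.6% of the 12710 genes compared. With rapamycin the first library was the highest for 5 of the 10, and for 35.2% of all genes. DUSP6 and SPRY4 were among those genes in both cases. Leaving out the third SK-MEL-28 etoposide library moved the estimate for DUSP6 in that line from -0.028 to 0.092, with the sign reversed and no call gained. The uneven share of highest values was not particular to SK-MEL-28. In A375 the first rapamycin library was the highest for 7 of the 10 genes, and for 34.4% of all genes. The third A375 etoposide library was the highest for 6 of the 10, and for 33.6% of all genes.

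Genes most like DUSP6 were sought by the Pearson correlation of log2 CPM over the 12 libraries after each line's mean was taken off, a description in which the points share libraries and depth. The highest values among 12709 genes were those of PARS2 (r = 0.884), DNAJA3 (0.861), SPRY4 (0.85), IER3 (0.845) and GFOD2 (0.837). SPRY4 and IER3, an immediate early gene, belong to the lists of ERK output genes used here. Among the other genes of the 10 the correlation with DUSP6 was 0.434 for DUSP4, 0.292 for PHLDA1 and 0.148 for SPRY2, and it ran from -0.217 to 0.089 for the remaining 5. Treatment means were not taken off, so these values also hold any change with rapamycin, whose part was not tested.

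**Figure D3:**
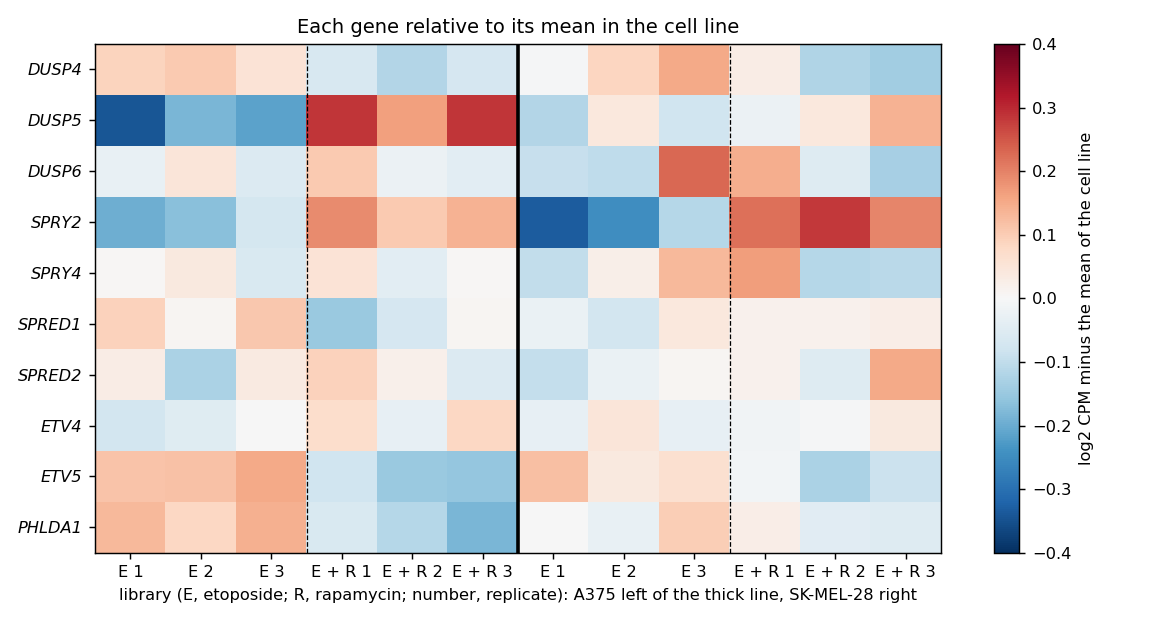
Log2 CPM of each gene minus its mean in the cell line (colour scale, blue below and red above), by library, with A375 left and SK-MEL-28 right of the thick line. In SK-MEL-28 the DUSP6 and SPRY4 rows are red in etoposide replicate 3 and in rapamycin replicate 1, while SPRY2 changes colour between the treatments in both lines.

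Under etoposide alone, the 2 cell lines differed in 9 of the 10 genes. In SK-MEL-28, 7 were lower, where 16.5% of all 19025 genes tested were, and 2 were higher, where 15.2% were. Of the 4285 genes of like abundance 46.9% differed in either direction. DUSP5 (0.62-fold) and ETV5 (1.58-fold) passed the 1.5-fold threshold as well, as did 13.0% of all genes. Libraries of the 2 lines did not overlap for 9 of the 10 genes, against 44.6% of all genes. For this count, too, the share among genes of like abundance was not computed. The median log2 difference over the 10 was -0.24, beside -0.0025 over all genes. Each side of the comparison is 1 cell line, so it does not compare classes of melanoma.

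All 3 phosphatases were lower in SK-MEL-28. DUSP5 was at 36 ± 2.13 CPM against 58.2 ± 3.34 CPM in A375 (SD, n = 3), with a log2 difference of -0.69 ± 0.07 SE (adjusted p = 6.9e-06). DUSP6 was at 157 ± 21.3 against 221 ± 8.59 CPM (log2 -0.49 ± 0.079 SE, adjusted p = 0.000365) and DUSP4 at 314 ± 17 against 374 ± 6.41 CPM (log2 -0.25 ± 0.05 SE, adjusted p = 0.00183). The Sprouty genes went in opposite directions. SPRY2 was lower in SK-MEL-28 (216 ± 17 against 302 ± 13.8 CPM, log2 -0.48 ± 0.061 SE, adjusted p = 5.23e-05), and SPRY4 was higher (209 ± 16.2 against 163 ± 5.36 CPM, log2 0.36 ± 0.06 SE, adjusted p = 0.000517). SPRED1 was at 160 ± 6.13 and 161 ± 5.94 CPM, a log2 difference of -0.005 ± 0.052 SE (adjusted p = 0.955).

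SPRED2 was slightly lower in SK-MEL-28, at 64.2 ± 2.33 against 75.5 ± 4.72 CPM (log2 -0.23 ± 0.062 SE, adjusted p = 0.0126), a call lost without the third A375 etoposide library (adjusted p = 0.0558). The ETS factors also went in opposite directions. ETV4 was at 155 ± 4.75 against 178 ± 4.4 CPM (log2 -0.20 ± 0.049 SE, adjusted p = 0.00715), and ETV5 was at 122 ± 3.57 against 77.1 ± 1.17 CPM (log2 0.66 ± 0.051 SE, adjusted p = 6e-07). DGKG, which shares exonic bases and an assembled locus with ETV5, was also higher in SK-MEL-28, and its part in the ETV5 difference was not tested. PHLDA1 was at 1247 ± 59.2 against 1787 ± 36.5 CPM (log2 -0.52 ± 0.046 SE, adjusted p = 2.31e-06).

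**Figure D4:**
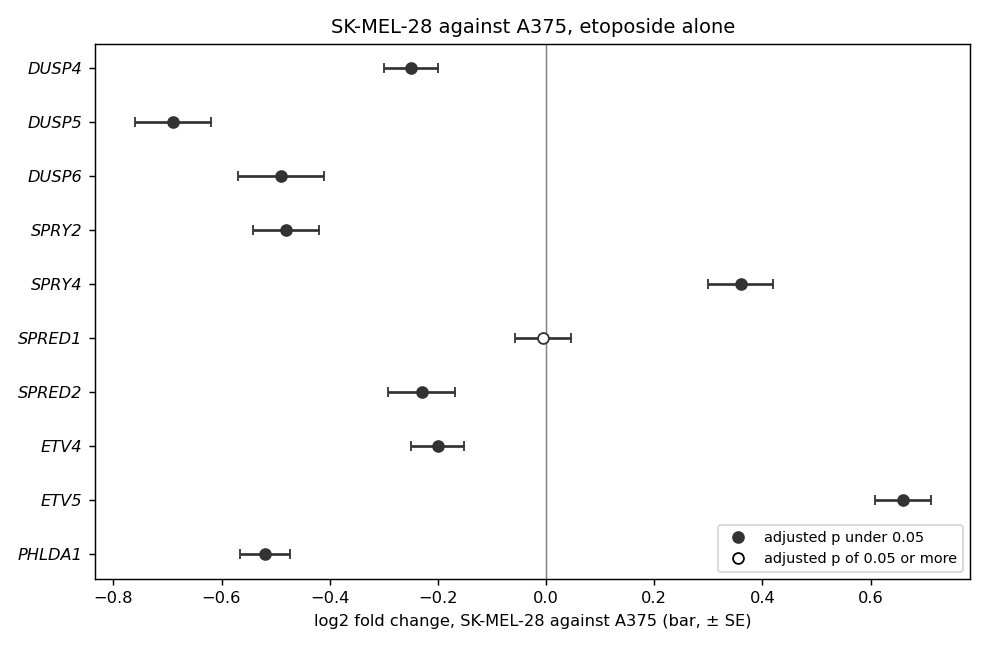
Log2 fold change of SK-MEL-28 against A375 under etoposide alone (horizontal axis) for each gene, with bars of 1 SE and an open point where the adjusted p was 0.05 or more. Of the 10 genes, 7 lie left of 0 with a filled point, from -0.69 for DUSP5 to -0.20 for ETV4, ETV5 (0.66) and SPRY4 (0.36) lie to the right, and SPRED1 is open at -0.005.

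The other genes of the pathway were read from lists of family relatives, kinase cascade components, further ERK output genes and transcription factors on the route from ERK to these promoters. Of 17 further output genes, 10 rose and 3 fell in A375 with rapamycin, and 11 rose and 2 fell in SK-MEL-28, with medians of 0.13 and 0.34 on the log2 scale. The background shares are the 14.3% and 8.83% higher and 13.8% and 10.1% lower given above, and among genes at or above 53.7 CPM, 51.4% and 34.7% changed in either direction. The list was chosen with earlier results of these data known, so its counts are a description. Of the 17 genes, 9 rose in both lines, as SPRY2 did among the 10. The share of all genes that rose in both lines was not computed, so these counts stand without a background. MAFF, a small MAF transcription factor, rose by log2 0.87 ± 0.053 SE in A375 and 0.71 ± 0.064 SE in SK-MEL-28, FOSL1, an AP-1 subunit, by 0.70 ± 0.046 and 0.57 ± 0.075, and EGR1, an immediate early zinc finger factor, by 0.45 ± 0.085 and 0.84 ± 0.094. TNFRSF12A, the TWEAK receptor (0.56 and 0.40), the chemokine CXCL8 (0.58 and 0.28), the receptor tyrosine kinase EPHA2 (0.47 and 0.23) and PLAUR, the urokinase receptor (0.20 and 0.40), passed in both lines as well. The remaining 2 were HMGA2, a chromatin protein (0.13 and 0.82), and ERRFI1, an EGFR inhibitor (0.13 and 0.39). SH2B3, an adaptor protein, fell in both (-0.19 and -0.16). CCND1, the G1 cyclin, fell in A375 (-0.13 ± 0.039 SE) and rose in SK-MEL-28 (0.27 ± 0.039 SE). The smaller of these changes were fragile to leaving out 1 library. In A375 the call ended without any of 4 of the 6 libraries for CCND1 (adjusted p up to 0.114) and ERRFI1 (0.154), any of 3 for HMGA2 (0.12), and the second rapamycin library for SH2B3 (0.0554), and in SK-MEL-28 without any of 4 of the 6 for CXCL8 (0.121) and SH2B3 (0.159), whereas MAFF, FOSL1, EGR1, TNFRSF12A, EPHA2 and PLAUR passed in both lines without any 1 library.

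The same background shares hold for the relatives, the cascade genes and the transcription factors, and counts near them say nothing particular to a list. Of the 13 relatives of the 10 genes, 3 rose and 3 fell in A375, and 4 rose and 3 fell in SK-MEL-28. DUSP7, like DUSP6 a cytoplasmic ERK phosphatase, rose in both lines (0.57 ± 0.089 SE and 0.34 ± 0.071 SE), as did PHLDA2 (0.28 and 0.30). DUSP16, a phosphatase of JNK and p38 (-0.49 and -0.50), and SPRED3 (-0.19 and -0.17) fell in both. The most abundant relatives by CPM other than PHLDA2 were PHLDA3, at -0.043 and -0.071 with neither value past the test, and DUSP10, which passed in SK-MEL-28 (0.28 ± 0.05 SE) and not in A375 (-0.097 ± 0.054 SE). Of the 24 cascade genes and adaptors, 5 rose and 6 fell in A375, and 1 rose and 4 fell in SK-MEL-28. MAP2K1, which encodes MEK1 (-0.17 and -0.33), the adaptor SHC1 (-0.22 and -0.16) and the RAF inhibitor PEBP1 (-0.20 and -0.20) fell in both, and LZTR1, which directs RAS proteins to degradation, rose in both (0.42 and 0.22). The abundant cascade genes PTPN11 (-0.099 and -0.10) and IQGAP1 (-0.047 and -0.093) did not pass in either line. Without 1 library, the call ended in A375 for SPRED3 (5 of the 6 libraries, adjusted p up to 0.171), MAP2K1 (3, up to 0.106) and PEBP1 (3, up to 0.09), and in SK-MEL-28 for SPRED3 (5, up to 0.166), SHC1, PEBP1 and LZTR1 (4 each, up to 0.157, 0.105 and 0.104) and DUSP16 (the first or the third etoposide library, up to 0.0731). The DUSP7 and PHLDA2 calls held in both lines.

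Of the 11 transcription factors, 5 rose and 1 fell in A375, and in SK-MEL-28 2 rose and 0 fell (at an unadjusted p in edgeR 2 fell, and by DESeq2 0). ETS1 rose in both lines (0.62 ± 0.056 SE and 0.26 ± 0.068 SE). In SK-MEL-28 the ETS1 call ended without any of 4 of the 6 libraries (adjusted p up to 0.0974). CIC, the repressor of ETV4, ETV5 and DUSP6, rose in A375 (0.27 ± 0.06 SE, adjusted p = 0.00527) and had an estimate of -0.14 ± 0.061 SE in SK-MEL-28 (adjusted p = 0.149). ELK3 passed in SK-MEL-28 (0.22 ± 0.066 SE) and not in A375 (-0.043 ± 0.048 SE), and ELK1 passed in neither (0.07 and 0.066). The ELK3 call ended without any of 3 of the 6 SK-MEL-28 libraries (adjusted p up to 0.14). Under etoposide alone 13 of the 17 further output genes were lower in SK-MEL-28 and 2 were higher, with a median of -0.49. Of all 19025 genes tested, 16.5% were lower and 15.2% higher, and 46.9% of genes at or above 53.7 CPM differed in either direction. Of the 10 genes, 7 were lower.

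**Figure D5:**
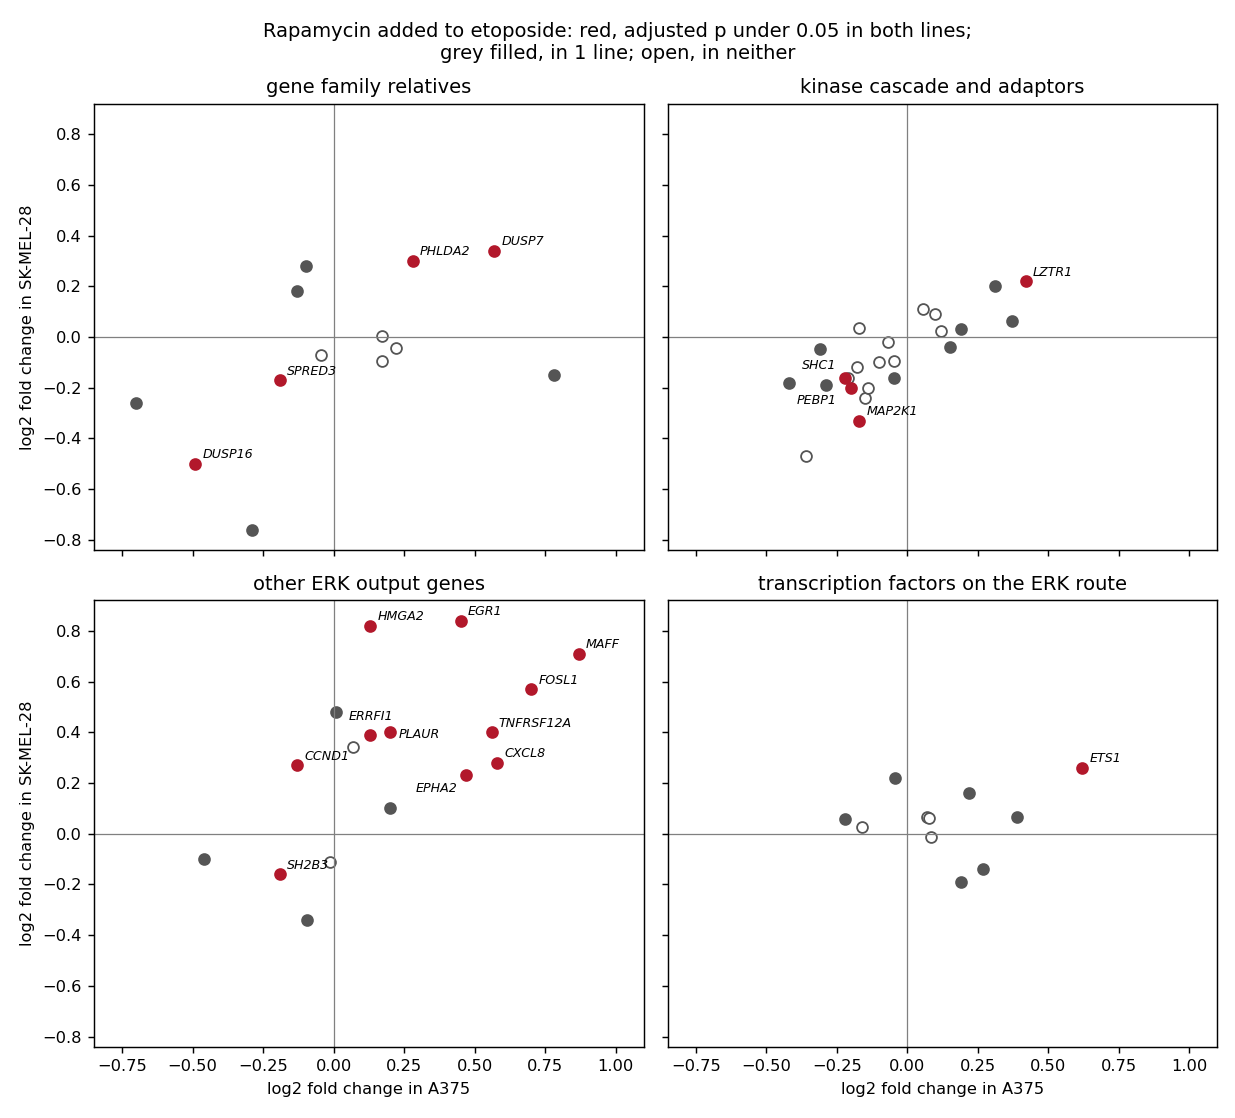
Log2 fold change of etoposide + rapamycin against etoposide in A375 (horizontal axis) and SK-MEL-28 (vertical axis) for the 4 lists, with named red points past the test in both lines, filled grey points in 1 line and open points in neither. Of the 17 further output genes, 9 are red in the upper right, CCND1 is red in the upper left and SH2B3 in the lower left.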

How the data were processed

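RNA was polyA selected from 12 samples of A375 and SK-MEL-28 and sequenced by the study. The study's methods state mapping with HISAT 2.2.0, conversion with Samtools 1.3.1 and StringTie 2.1.4 with the Ensembl release 90 annotation on GRCh38. The authors deposited whole-number counts per gene, which were used here. How StringTie coverage became counts, and whether strand was used, is not given in the sources used here, and a count estimated from coverage may be less exact than a count of reads. Rows without a gene (5, at most 0.00529% of a library) were left out.

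Counts were tested with edgeR 4.0.16 in R 4.3.3 (filterByExpr at a minimum count of 10, TMM, quasi-likelihood test, Benjamini-Hochberg over all genes tested, adjusted p under 0.05). The study's 1.5-fold threshold was counted separately. The fits used the 6 libraries of A375, the 6 of SK-MEL-28, the 6 etoposide libraries, and all 12 for the difference in response. Groups and replicate numbers came from the labels. Standard errors were derived from each log2 fold change and its F statistic. Same-numbered etoposide and rapamycin libraries did not deviate together (r from -0.03 to 0.021), so no block was used. The scripts were tested on simulated data. Positions and exon lengths are from GENCODE release 44.

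Alternatives were DESeq2 1.42.0, RLE factors, library totals, 2 other count filters, a replicate block, halved counts, 1 fit of 12 libraries and leaving out each library. The 10 genes and the lists were chosen with earlier results of these data known. Named genes were the 10, and from the other lists those past the test in both lines and the 3 of highest mean CPM. PARS2, DNAJA3 and GFOD2 come from the 5 most like DUSP6. Intervals and errors cover the spread of these libraries only.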

Additional observations from a re-analysis of the deposited data

Results flagged for a closer look

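Genes with a different response to rapamycin in the 2 cell lines, by the test of the difference itself (edgeR's quasi-likelihood test over the 12 libraries, Benjamini-Hochberg adjusted p) are given as SK-MEL-28 minus A375 on the log2 scale. Among the 10 ERK output and feedback genes this was DUSP5 (-0.39 ± 0.09 SE, adjusted p = 0.0183), which rose in A375 and did not pass in SK-MEL-28. Some genes of the other lists named above had a higher log2 fold change in SK-MEL-28. They were HMGA2 (0.70 ± 0.06 SE, adjusted p = 6.78e-06) and CCND1 (0.41 ± 0.048 SE, adjusted p = 0.000137). DUSP10 (0.38 ± 0.075 SE, adjusted p = 0.00682) and ERRFI1 (0.26 ± 0.063 SE, adjusted p = 0.0214) were also higher there. The value was lower there for CIC (-0.40 ± 0.089 SE, adjusted p = 0.015) and ETS1 (-0.35 ± 0.097 SE, adjusted p = 0.0437). The estimates for CIC had opposite signs (0.27 in A375 and -0.14 in SK-MEL-28), and only that in A375 passed. Those for DUSP10 did too (-0.097 and 0.28), and only that in SK-MEL-28 passed. Among the marker genes, S100B fell in A375 and its response in SK-MEL-28 was higher by 0.42 ± 0.11 SE (adjusted p = 0.0354), and that of DCT, a pigment gene at 0.202 to 2.16 CPM over the 12 libraries, by 1.82 ± 0.45 SE (adjusted p = 0.0257). By list, the difference passed for 2 of the 13 relatives, 4 of the 17 further output genes and 4 of the 11 transcription factors. Of the 24 cascade genes 0 passed (1 by DESeq2, and 3 higher and 4 lower at an unadjusted p in edgeR). Of all 20101 genes 5.62% passed, and of those of like abundance 13.6%. Not every gene counted by list is named here. Genes outside the 10, the genes named and the marker lists were not gone through one by one. HMGA2 was at 635 to 670 CPM in A375 under etoposide and 702 to 731 CPM with rapamycin, and at 305 to 313 against 516 to 571 CPM in SK-MEL-28. CCND1 went from 1109 to 1152 CPM down to 1016 to 1043 CPM in A375, and from 921 to 954 CPM up to 1107 to 1148 CPM in SK-MEL-28, so its libraries moved in opposite directions. The call of a difference ended without any of 9 of the 12 libraries for ETS1 (adjusted p up to 0.0982), 9 of the 12 for S100B (up to 0.0989), 7 of the 12 for DCT (up to 0.0606), 6 of the 12 for ERRFI1 (up to 0.0678), and the 3 given in the report for DUSP5 (up to 0.0605), and that of CIC without the third A375 rapamycin library (adjusted p = 0.0513). Groups of 3 are too small for a check of outlying libraries.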

How the results depend on the processing

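Halving the counts left 5, 1, 1 and 9 of the 10 genes called in the 4 comparisons, as at full depth. The SPRY2 increase in both lines, the DUSP5 increase and the ETV5 and PHLDA1 decreases in A375 kept direction and call under every alternative run. In A375 the count of changed genes stayed between 4 and 6 of the 10, and under etoposide the lines differed in 8 to 9. In SK-MEL-28 the count of 1 became 3 with DESeq2, with library totals, with 1 fit of 12 libraries and without the first rapamycin library, where DUSP4 and ETV5 were added, and lay between 1 and 3 over the libraries left out. The count whose response differed was 2 with DESeq2 (PHLDA1 added) and between 0 and 2 over the libraries left out. Replicate numbers did not pair the libraries, and the replicate block again gave 5, 1, 1 and 9 called genes. Among the other named genes the block ended the calls of SPRED3 in SK-MEL-28, of CCND1, ERRFI1 and HMGA2 in A375, and of the difference for ERRFI1, ETS1, S100B and DCT. Library totals as the scaling moved the share of higher calls over all genes from 50.8% to 39.7% in A375 and from 46.6% to 36% in SK-MEL-28, and the median over all genes to -0.05 and -0.029. For the difference in response, 1130 genes passed in all, 1792 by DESeq2, 658 when 1 count in any library sufficed for a gene to be tested and 620 with the replicate block. When 1 count in any library sufficed, the called relatives in SK-MEL-28 went from 7 to 4, the called cascade genes from 11 to 7 in A375 and from 5 to 1 in SK-MEL-28, and the called transcription factors in SK-MEL-28 from 2 to 0. Without 1 library these 4 counts fell to as few as 4, 7, 1 and 0, and the called transcription factors in A375 from 6 to 3. The cause was not tested.

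Signs turned only for values that did not pass. With library totals DUSP6 (-0.014), SPRY4 (-0.028) and SPRED2 (-0.0018) turned in A375 and ETV4 (-0.024) in SK-MEL-28. SPRED1 between the lines turned with DESeq2 (0.00012) and RLE factors (6.3e-05). The DUSP4 difference in response turned with both (-0.0023) and with 10 counts in every library (-0.0077). With 1 library left out, the A375 value ran from -0.014 to 0.064 for DUSP6, -0.0083 to 0.043 for SPRY4, -0.0063 to 0.081 for SPRED2 and -0.12 to 0.011 for IQGAP1, and the SK-MEL-28 value from -0.11 to 0.092 for DUSP6, -0.13 to 0.023 for SPRY4, -0.006 to 0.035 for ETV4, -0.11 to 0.029 for EGFR and -0.071 to 0.28 for DCT. The difference in response ran from -0.042 to 0.05 for DUSP4, -0.13 to 0.068 for DUSP6, -0.14 to 0.013 for SPRY4 and -0.014 to 0.087 for SPRED2, and SPRED1 between the lines from -0.035 to 0.025.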
